A study of Mus musculus with 12 samples.

Results

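The 10 genes described here were *Ulk1*, *Becn1*, *Map1lc3a*, *Map1lc3b*, *Gabarapl1*, *Sqstm1*, *Lamp1*, *Lamp2*, *Ctsl* and *Tfeb*, a set of autophagy and lysosome genes chosen by name. They were 10 of the 55367 distinct gene symbols in the files, and all 10 were among the 14427 genes tested. The 12 RNA samples held single fibers of the extensor digitorum longus (EDL), a fast hindlimb muscle of the mouse. Of these, 4 were labelled Young and came from mice that the methods give as 3–4 months old. Both aged groups came from 26–28-month-old mice, with 4 samples of fibers labelled Fluo-4 normal and 4 of fibers labelled Fluo-4 abnormal. The methods name C57BL/6J as the mouse strain, bought from the Jackson Laboratory. For aged mice they give another source, the National Center for Geriatrics and Gerontology. Age and source therefore cannot be told apart in the comparisons with Young fibers. No allele or drug is given for any group, and fibers were freed from the muscle with collagenase in each of them. Fluo-4 is a fluorescent calcium dye. After staining, fibers of aged mice with aberrant, bright fluorescence were separated from the others by hand under a fluorescence stereomicroscope, so the 2 aged groups differ by how a fiber stained and not by a treatment. The labels do not say how many fibers or mice a sample holds, or whether a number marks a mouse, so p-values measure only the spread between these samples.

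Autophagy delivers pieces of cytoplasm to the lysosome for breakdown. A kinase complex around ULK1 and a lipid kinase complex around beclin 1 start the autophagosome, ATG8 proteins such as LC3 and GABARAPL1 are attached to its membrane, and receptors such as p62, the product of *Sqstm1*, bring ubiquitinated cargo to them. The lysosome then digests the content with hydrolases such as cathepsin L behind a membrane rich in LAMP proteins. TFEB is a transcription factor known to bind E-boxes with the core CACGTG in promoters of lysosomal and autophagy genes. Skeletal muscle depends on this route for the removal of damaged proteins and organelles, and defects of it are known from muscle disease.

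The sequence known for TFEB binding is shown first, because the set holds both the factor and genes for lysosomal proteins. RefSeq promoters (GRCm38.p6, 250 bases before to 50 bases after the start) were at hand for 8 of the 10 genes, not for *Map1lc3a* and *Becn1*. Both strands were searched for CACGTG, which reads the same on either strand and is contained in the extended form TCACGTG. The *Lamp1* promoter held 4 cores, whose first bases lay 61, 45, 28 and 15 bases before the start. Its stretch at chr8:13159090-13159160 on the plus strand of GRCm38.p6 is printed 5′ to 3′ with the cores in capitals.

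Lamp1: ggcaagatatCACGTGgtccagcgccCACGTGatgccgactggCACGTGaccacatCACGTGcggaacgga

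Only 8 of the 32851 promoters in the table (0.0244%) held 4 or more cores, while 7.15% held at least 1. *Ctsl* held 1 core, 236 bases before the start, in aagcCACGTGctga. No core was found in these windows of *Sqstm1*, *Map1lc3b*, *Gabarapl1*, *Ulk1*, *Lamp2* or *Tfeb*. *Map1lc3b* held 1 match to TGACNNNGC, the core of the antioxidant response element, a motif found in 12.4% of all promoters. The element GTAAACA, known for FoxO factors, was in none of the 8 genes' windows and in 3.65% of all promoters.

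TPM is a level per transcript length that sums to the same total in each sample. The levels therefore compare genes within a sample, and a rise of some genes lowers the others. Depth is unknown because the files hold no counts. The fibers carried their defining genes: the 7 myofiber markers summed to 134179 to 138198 TPM in Young, 113712 to 132410 in Fluo-4 normal and 135644 to 155815 in Fluo-4 abnormal samples. *Myh4*, the myosin of type IIb fibers, made up 96.9% to 98.6%, 93.7% to 99.2% and 98.9% to 99.7% of the summed TPM of *Myh1*, *Myh2*, *Myh4* and *Myh7* in these groups. Mitochondrially-encoded genes held 7.35% to 8.01% of the TPM in Young, 8.75% to 10.9% in Fluo-4 normal and 4.75% to 6.92% in Fluo-4 abnormal samples. Across the 6348 genes that reached 5 TPM in at least 1 group, the median log2 change of abnormal over normal fibers was 0.20, and it was 0.10 over all genes tested. A rescaling with TMM-type factors, which assume that most genes keep their level, moved the latter to 0. For genes with a printed change of abnormal over normal fibers, the rescaled value is given where a call or direction depended on that rescaling. In samples that pool whole fibers and other cells, fewer cells of a type and less RNA per cell cannot be told apart.

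**Figure D1:**
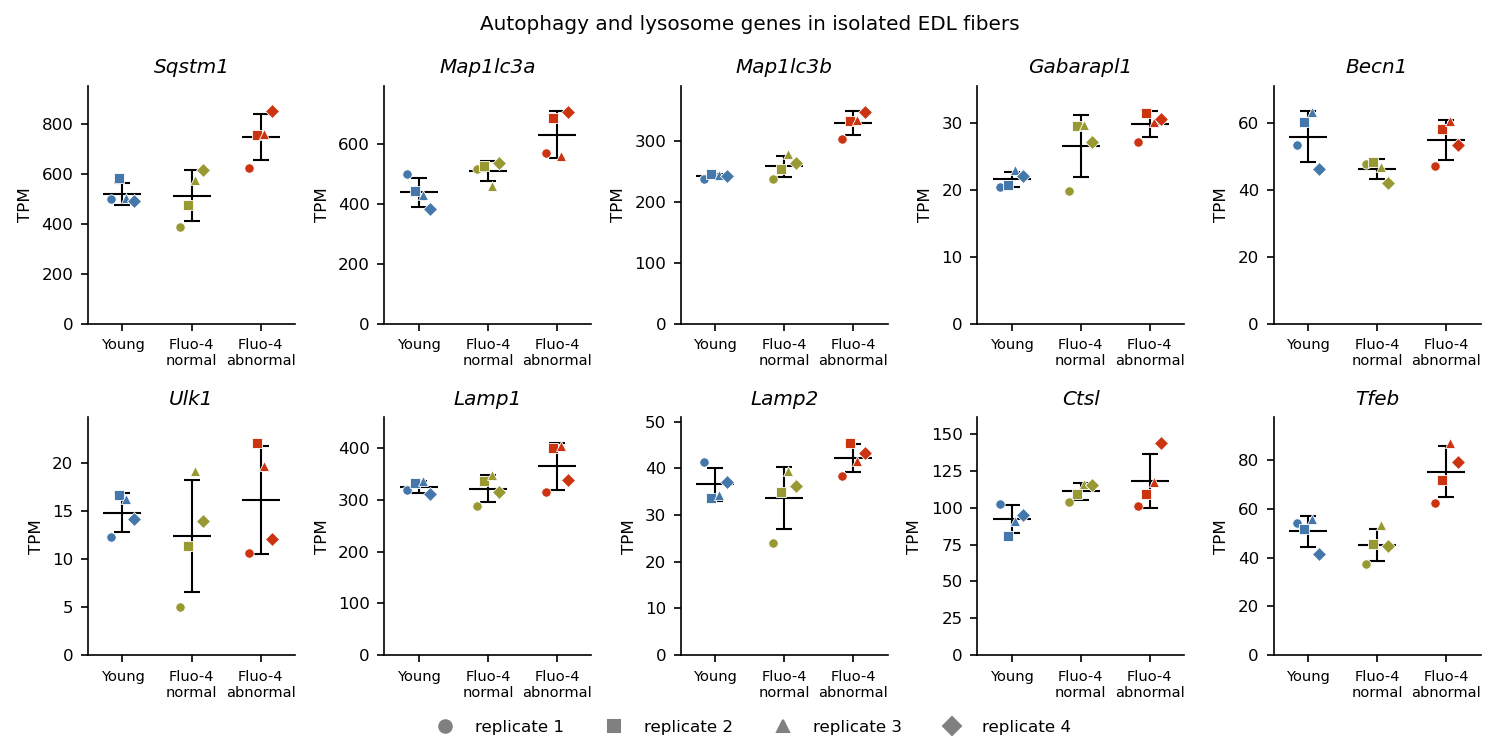
TPM of the 10 genes (y axes, linear, from 0) in Young, Fluo-4 normal and Fluo-4 abnormal samples. Symbols are the 4 samples of a group by replicate number, the horizontal line is the mean and the bar the SD. In TPM as deposited the abnormal samples lie above all 8 others for *Sqstm1*, *Map1lc3a*, *Map1lc3b* and *Tfeb*, and the groups overlap for *Becn1*, *Ulk1* and *Lamp1*.

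In the Fluo-4 abnormal fibers, transcripts of the regulator *Tfeb*, the cargo receptor *Sqstm1* and the ATG8 gene *Map1lc3b* exceeded those of the Fluo-4 normal fibers. The rise was 1.65-fold for *Tfeb*, 1.47-fold for *Sqstm1* and 1.27-fold for *Map1lc3b*, on the scale of TPM + 1. These were 3 of the 10 genes at an adjusted p-value under 0.05 from limma, where 7.36% of all genes tested were called higher. That share covers many genes of low level. In the fit limited to genes from 5 TPM, which held all 10, 4 were called and 22.4% of its genes were called higher. No gene of the set was called lower, where 1.99% of all genes tested were. For 4 of the 10 genes, with *Map1lc3a* as the fourth, all abnormal samples lay above all normal samples, where 11.5% of all genes tested were higher without overlap. The median log2 change of the 10 genes was 0.32, beside 0.20 for genes from 5 TPM. All 10 changes were above 0 in TPM as deposited, and 7 were above 0 with TMM-type factors, where *Gabarapl1*, *Lamp1* and *Ctsl* turned to -0.04, -0.05 and -0.15. No share of positive changes over all genes tested was computed to set beside these counts. Same-numbered abnormal and normal samples deviated together from their group means across genes. With the replicate number of the aged samples as a block, 6 of the 10 genes were called, *Map1lc3a*, *Lamp2* and *Lamp1* in addition, and 13.0% of all genes tested were called higher. With a block over all 3 groups the count was 3, where 11.1% of all genes tested were called higher. With the block of aged samples and TMM-type factors together, *Tfeb* and *Sqstm1* were called, where 3.62% of all genes tested were higher.

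*Tfeb*, on chromosome 17 of GRCm39 from 48047837 to 48103348 (plus strand), encodes the transcription factor itself. It was at 62.7, 72.1, 87.2 and 79.2 TPM in abnormal samples 1 to 4. It was at 37.2, 45.6, 53.5 and 44.8 TPM in normal samples 1 to 4, and at 54.2, 51.7, 56.1 and 41.7 TPM in the Young samples. Every abnormal sample lay above every other sample, whereas normal and Young samples overlapped. The mean was 75.3 ± 10.4 TPM (SD, n = 4) in abnormal and 45.3 ± 6.64 TPM (SD, n = 4) in normal fibers. The log2 change was 0.72 (standard error, SE, 0.13, limma adjusted p = 0.0047). Within the replicate numbers the abnormal sample was 1.58 to 1.77 times the normal sample. The call held with TMM-type factors (log2 change 0.50, adjusted p = 0.015 from limma).

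*Sqstm1* lies on chromosome 11 from 50089572 to 50107684 (minus strand) and encodes p62, which binds ubiquitin and LC3 and is itself degraded by autophagy. It was the most abundant of the 10 genes in each abnormal sample, at 622, 755, 758 and 848 TPM in samples 1 to 4. Normal samples were at 386, 474, 574 and 612 TPM, and Young samples at 498, 583, 502 and 489 TPM. The lowest abnormal sample (622 TPM) lay just above the highest normal sample (612 TPM). The spread was largest in the normal fibers, with a coefficient of variation of 20.0% against 8.47% in Young fibers. The mean was 746 ± 93.2 TPM (SD, n = 4) in abnormal and 512 ± 102 TPM (SD, n = 4) in normal fibers, which gave a log2 change of 0.56 (SE 0.13, limma adjusted p = 0.020). Within the replicate numbers the ratio was 1.32 to 1.61. In limma the call was lost with TMM-type factors (0.33, adjusted p = 0.11), with no filter on low genes (adjusted p = 0.068), with only the 2 groups compared (0.053), and with the *Myh4* share as a covariate, alone (0.056) or beside the block (0.12). It was also lost without normal replicate 2 (0.53, adjusted p = 0.052), abnormal replicate 2 (0.55, adjusted p = 0.059) or abnormal replicate 4 (0.49, adjusted p = 0.058).

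The ATG8 genes encode the small proteins that are joined to lipid on the autophagosome membrane, where they bind cargo receptors and lysosome-fusion factors. *Map1lc3b* (chromosome 8, 122317100 to 122325499, plus strand) encodes LC3B, the usual marker of autophagosomes. It was at 303, 333, 335 and 348 TPM in abnormal, 238, 255, 279 and 263 TPM in normal, and 238, 246, 244 and 243 TPM in Young samples. The 4 Young samples lay between 238 and 246 TPM, and every abnormal sample lay above all other samples. The mean was 330 ± 19.0 TPM (SD, n = 4) in abnormal and 259 ± 17.3 TPM (SD, n = 4) in normal fibers, which gave a log2 change of 0.35 (SE 0.06, limma adjusted p = 0.0054). With TMM-type factors it was 0.12 (adjusted p = 0.40 from limma).

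*Map1lc3a* (chromosome 2, 155118217 to 155119998, plus strand) encodes LC3A and was the most abundant ATG8 gene in all 12 samples. It was at 569, 686, 560 and 707 TPM in abnormal, 514, 527, 460 and 536 TPM in normal, and 500, 443, 427 and 383 TPM in Young samples. The abnormal samples lay above all others, and the normal and Young samples overlapped. Its log2 change in abnormal over normal fibers was 0.30 (SE 0.10, limma adjusted p = 0.070). The adjusted p was 0.025 with the block of aged samples and 0.058 with the block of all groups. With TMM-type factors the change was 0.08 (limma adjusted p = 0.78, and 0.72 with the block of aged samples). *Gabarapl1* (chromosome 6, 129509725 to 129520544, plus strand) belongs to the GABARAP branch of the family and was the least abundant member. It was at 27.1, 31.4, 30.1 and 30.6 TPM in abnormal, 19.8, 29.5, 29.6 and 27.2 TPM in normal, and 20.4, 20.7, 23.0 and 22.0 TPM in Young samples. The aged groups overlapped, and normal replicate 1 lay below all Young samples while normal replicates 2 to 4 lay above them. Its log2 change in abnormal over normal fibers was 0.18 (SE 0.12, limma adjusted p = 0.36).

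The make-up of the ATG8 family does not depend on the scaling of a sample. *Map1lc3a* held 45.4% ± 2.68 (SD, n = 4) of the summed TPM of the 5 ATG8 genes in Young, 48.6% ± 2.54 in normal and 49.2% ± 2.24 in abnormal fibers. *Map1lc3b* held 25.2% ± 1.54, 24.7% ± 1.81 and 25.8% ± 1.43. These shares overlapped between the groups. The share of *Gabarapl2*, another GABARAP branch gene, was 12.6% to 13.4% in Young, 11.1% to 12.3% in normal and 9.46% to 10.9% in abnormal samples, with no overlap between the 3 groups. The share of *Gabarapl1* overlapped between them, at 1.99% to 2.43%, 1.94% to 2.90% and 2.23% to 2.49%.

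*Ulk1* and *Becn1* act at the start of autophagosome formation. *Ulk1* (chromosome 5, 110931496 to 110957995, minus strand) was the lowest and most variable of the 10 genes. It was at 10.6, 22.1, 19.7 and 12.1 TPM in abnormal, 5.04, 11.4, 19.2 and 14.0 TPM in normal, and 12.3, 16.6, 16.3 and 14.2 TPM in Young samples. The abnormal samples spanned the whole Young range, and normal replicate 1 stood below all others. Its log2 change in abnormal over normal fibers was 0.42 with an SE of 0.31 (adjusted p = 0.43 from limma). *Becn1* (chromosome 11, 101176769 to 101193122, minus strand) encodes beclin 1. It was at 47.3, 58.4, 60.8 and 53.4 TPM in abnormal, 47.9, 48.4, 47.0 and 42.0 TPM in normal, and 53.6, 60.4, 63.5 and 46.5 TPM in Young samples. Abnormal and Young samples covered nearly the same range, and the normal samples lay near or below its lower end. Its log2 change in abnormal over normal fibers was 0.24 (SE 0.10, limma adjusted p = 0.17).

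*Lamp1* and *Lamp2* encode the main glycoproteins of the lysosomal membrane, and LAMP2 is known for its role in the fusion of autophagosomes with lysosomes. *Lamp1* (chromosome 8, 13209121 to 13227360, plus strand), whose promoter held the 4 E-box cores, was at 315, 402, 406 and 339 TPM in abnormal, 289, 337, 348 and 316 TPM in normal, and 319, 334, 337 and 311 TPM in Young samples. Abnormal replicates 2 and 3 stood above all others, and abnormal replicate 1 lay within the Young range. Its log2 change in abnormal over normal fibers was 0.18 (SE 0.09, limma adjusted p = 0.23). The adjusted p was 0.033 with the block of aged samples and 0.078 with the block of all groups, and the change was -0.05 with TMM-type factors. *Lamp2* (chromosome X, 37488520 to 37545340, minus strand) was at 38.3, 45.4, 41.6 and 43.4 TPM in abnormal, 24.1, 34.9, 39.4 and 36.2 TPM in normal, and 41.4, 33.5, 34.3 and 37.1 TPM in Young samples. The groups overlapped, with normal replicate 1 as the lowest of the 12. The log2 change was 0.34 (SE 0.13, limma adjusted p = 0.12). The adjusted p was 0.041 with the block of aged samples and 0.11 with the block of all groups, and the change was 0.12 with TMM-type factors (adjusted p = 0.63). *Lamp1* was at 7.71 to 9.95 times the level of *Lamp2* in Young, 8.73 to 12.0 times in normal and 7.82 to 9.76 times in abnormal samples, and these ratios overlapped.

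*Ctsl* (chromosome 13, 64507151 to 64518704, minus strand) encodes the lysosomal protease cathepsin L, a gene known to be induced in wasting muscle. It was at 101, 110, 118 and 144 TPM in abnormal, 104, 109, 116 and 116 TPM in normal, and 103, 80.6, 90.8 and 95.04 TPM in Young samples. The aged groups overlapped almost fully apart from abnormal replicate 4. The log2 change between them was 0.08 (SE 0.10, limma adjusted p = 0.68), the smallest of the set. *Ctsl* was also the single gene of the set whose normal samples all lay above the Young samples.

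Against Young fibers, the Fluo-4 abnormal fibers had higher transcripts of the 3 ATG8 genes of the set, of *Sqstm1* and of *Tfeb*. These 5 of the 10 genes were called higher by limma, where 6.09% of all genes tested were, and 0 were called lower, where 2.41% were. In the fit limited to genes from 5 TPM, 15.2% of its genes were called higher. The log2 changes were 0.55 for *Tfeb* (SE 0.13, adjusted p = 0.018), 0.52 for *Map1lc3a* (0.10, adjusted p = 0.0061) and 0.52 for *Sqstm1* (0.13, adjusted p = 0.029). They were 0.45 for *Gabarapl1* (SE 0.12, adjusted p = 0.029) and 0.44 for *Map1lc3b* (0.06, adjusted p = 0.0012). All 4 abnormal samples lay above all 4 Young samples for these 5 genes, where 12.2% of all genes tested were higher without overlap. The median over the 10 genes was 0.39, beside 0.12 for genes from 5 TPM. *Ctsl* had a log2 change of 0.35 (adjusted p = 0.054), and *Becn1* one of -0.02 (adjusted p = 0.93). With TMM-type factors only *Map1lc3b* (0.26, adjusted p = 0.037) and *Tfeb* (0.38, adjusted p = 0.047) were called by limma. That fit called 3.09% of all genes tested higher. The count was 2 without abnormal replicate 4 or without Young replicate 4, and 3 without abnormal replicate 2, abnormal replicate 3 or Young replicate 1. In that order, 3.81%, 2.73%, 3.35%, 4.84% and 3.34% of all genes tested were called higher.

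Between Fluo-4 normal and Young fibers no gene of the set was called by limma in either direction, where 0.561% of all genes tested were higher and 0.589% lower. At an unadjusted p under 0.05 there were 4 of the 10, where 12.9% of all genes tested passed in either direction. These were *Ctsl* (log2 change 0.27), *Gabarapl1* (0.27), *Map1lc3a* (0.22) and *Becn1* (-0.26), with adjusted p-values of 0.26, 0.33, 0.36 and 0.29. Only *Ctsl* was higher without overlap, where 3.03% of all genes tested were. *Sqstm1*, *Map1lc3b* and *Tfeb* had log2 changes of -0.04, 0.09 and -0.17, and their ranges overlapped. The change of *Sqstm1* was 0.02 with TMM-type factors. Without normal replicate 1, *Gabarapl1* was called (0.40, adjusted p = 0.030). This comparison and the preceding one share the Young samples.

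**Figure D2:**
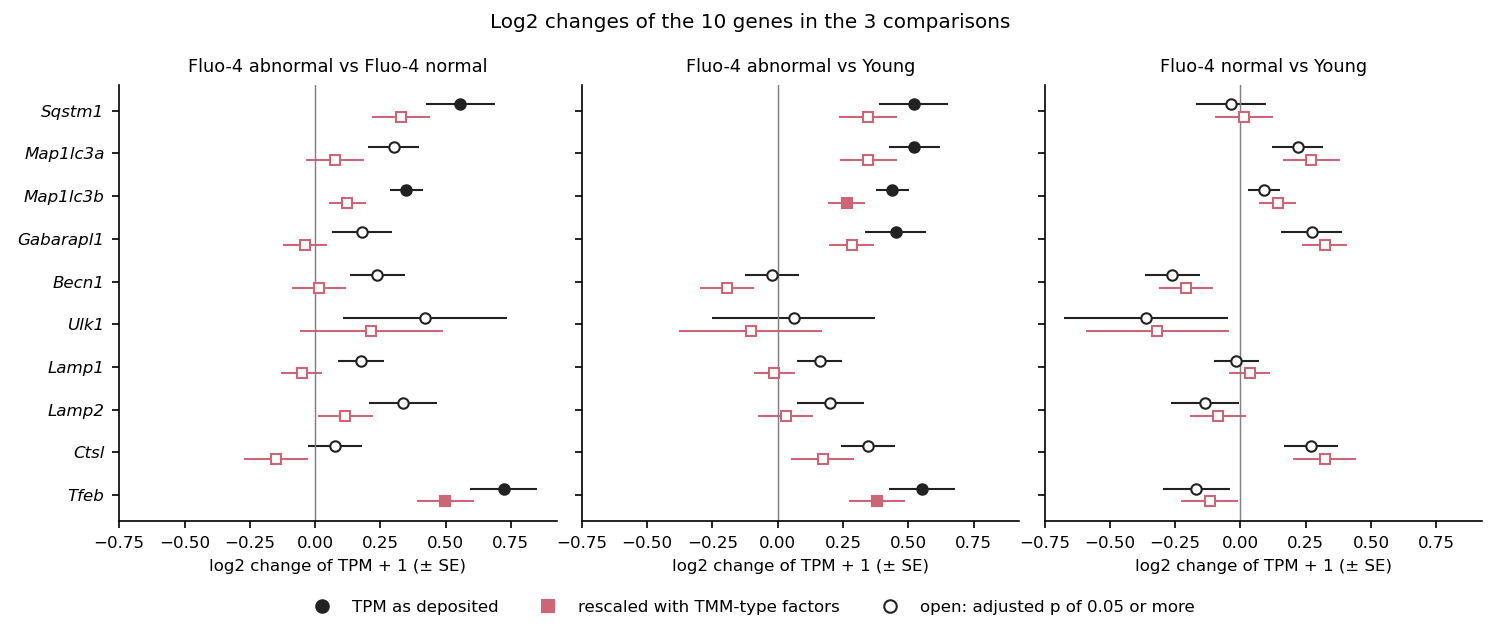
Log2 changes of TPM + 1 (x axes, ± standard error from limma) of the 10 genes in the 3 comparisons, as deposited (circles) and with TMM-type factors (squares). Filled symbols have an adjusted p under 0.05. *Tfeb* is filled in both settings in the comparisons of abnormal with normal and with Young fibers, and *Gabarapl1*, *Lamp1* and *Ctsl* lie below 0 for abnormal against normal fibers with TMM-type factors.

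Autophagy and lysosome genes beyond the set were described with 15 lists that held 182 genes, the 10 included, of which 179 were tested. Between abnormal and normal fibers 22 of the 179 were called higher and 0 lower by limma. Without the 10 genes this was 19 of 169 (11.2%), beside the 7.36% of all genes tested, and the median log2 change of the 169 was 0.23, beside 0.20 for genes from 5 TPM. The 7.36% covers many genes of low level. The fit limited to genes from 5 TPM kept 129 of the listed genes and called 37 of them higher, where 22.4% of all its genes were. The 4 lists of lysosomal membrane proteins, cathepsins, other hydrolases and the proton pump had 11 of 79 genes called and a median of 0.20. The 11 other lists, which cover autophagy, nutrient sensing and mannose-6-phosphate sorting, had 11 of 100 and a median of 0.30. In TPM as deposited 161 of the 179 changes were above 0, while with TMM-type factors 106 were. The share of positive changes over all genes tested was not computed. Their median change was also above 0 in TPM as deposited (0.10), and it was 0 with TMM-type factors. With these factors 5 genes were called higher (*Tfeb*, *Atp6v0a1*, *Nbr1*, *Sort1* and *Atg13*), where 2.12% of all genes tested were. The cathepsin gene *Ctsb* was called lower (log2 change -0.35, limma adjusted p = 0.036), where 3.76% were. With the block of aged samples 46 were called higher, where 13.0% of all genes tested were, and the cathepsin gene *Ctsh* lower (-0.67, limma adjusted p = 0.030), where 2.82% were. *Ctsb* and *Ctsh* were named after their values were seen. Without abnormal replicate 2 the count was 7, and without normal replicate 1 it was 14. Those fits called 3.19% and 4.58% of all genes tested higher.

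The largest rise on the lists was that of *Atp6v0a1*, a membrane subunit of the vacuolar proton pump that acidifies lysosomes. It was at 47.8, 67.3, 59.1 and 61.7 TPM in abnormal, 20.4, 23.1, 29.3 and 31.7 TPM in normal, and 26.5, 31.3, 31.0 and 27.0 TPM in Young samples. Its lowest abnormal sample lay above the highest of the other 8 samples. The log2 change was 1.16 (SE 0.14, limma adjusted p = 0.00068), and 0.93 was the lowest value over the other settings, reached with TMM-type factors. Of the 19 tested genes of the pump 5 were called higher, among them *Atp6v0c*, which encodes the ring subunit of the membrane part. With TMM-type factors only *Atp6v0a1* of these was called. *Atp6v0c* went from 160 ± 11.1 TPM in normal to 202 ± 21.1 TPM in abnormal fibers (SD, n = 4; log2 change 0.33, adjusted p = 0.024), and 0.11 was its change with TMM-type factors (adjusted p = 0.55). The median of the pump's list was 0.20, and that of genes from 5 TPM was also 0.20.

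Among 7 cargo receptors, *Sqstm1* and *Nbr1* were called higher. *Nbr1*, which encodes a receptor of similar domain make-up to p62, was at 34.1, 40.3, 38.1 and 43.1 TPM in abnormal and 15.3, 25.0, 27.9 and 26.6 TPM in normal samples. Young samples were at 20.2 to 25.3 TPM, below every abnormal sample. Its log2 change was 0.72 (SE 0.16, limma adjusted p = 0.013), or 0.50 at an adjusted p of 0.025 after the TMM-type rescaling. *Tax1bp1*, also a receptor for ubiquitinated cargo, had a log2 change of 0.38 (adjusted p = 0.086). None of 8 receptors for the autophagy of the endoplasmic reticulum was called, and *Sec62* and *Retreg3*, the genes with the smallest p among them, had log2 changes of 0.40 and 0.41 (adjusted p = 0.11 and 0.12).

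In the ULK1 complex, *Atg13*, the adaptor that holds the kinase in the complex, was called higher (0.66, SE 0.16, limma adjusted p = 0.024), and also with TMM-type factors (0.45, adjusted p = 0.049). It was at 23.0 ± 2.15 TPM in abnormal and 14.5 ± 3.62 TPM in normal fibers (SD, n = 4), and it shares 3412 bp with *Arhgap1* on the other strand. *Atg101*, another subunit, had a change of 0.26 (adjusted p = 0.074). Of 11 genes of the ATG8 conjugation machinery 3 were called, *Atg16l1*, *Atg4a* and *Atg3*, and none of these with TMM-type factors. *Atg3*, the E2-like enzyme that joins ATG8 proteins to lipid, was at 22.1 to 23.0 TPM in abnormal and 15.5 to 18.9 TPM in normal samples (log2 change 0.36, adjusted p = 0.025). With TMM-type factors its change was 0.14 (adjusted p = 0.33). *Atg4a*, a protease that trims ATG8 proteins, had a change of 0.36 (adjusted p = 0.018) that was 0.14 with these factors (0.39), and a pseudogene copy of it can share its reads. No gene of the class III PI3-kinase complexes was called, and *Pik3c3*, the catalytic subunit, had a change of 0.33 (adjusted p = 0.14), and *Rubcn*, an inhibitor of the complex, 0.39 (0.29).

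The membrane supply genes and the fusion genes had 0 of 10 and 0 of 14 called. *Wdr45b* and *Tmem41b*, which act in the growth of the autophagosome membrane, had log2 changes of 0.35 and 0.45 (adjusted p = 0.074 and 0.087 from limma). *Vps41* of the HOPS tethering complex and the SNARE gene *Stx17* had changes of 0.32 and 0.57 (adjusted p = 0.073 and 0.074). Of the other ATG8 genes, *Gabarap* had a change of 0.23 (adjusted p = 0.055) and *Gabarapl2* one of 0.14 (0.19), which turned to -0.09 with TMM-type factors.

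Among the nutrient-sensing genes, 1 of 19 was called. This was *Rragd*, which encodes a Rag GTPase that recruits mTORC1 to the lysosome and is a known target of TFEB. It was at 69.8, 107, 91.1 and 68.2 TPM in abnormal and 52.1, 57.0, 58.0 and 52.9 TPM in normal samples (log2 change 0.58, SE 0.13, limma adjusted p = 0.016). With TMM-type factors the change was 0.35 (adjusted p = 0.11). The Young samples, at 52.1 to 68.7 TPM, reached into the abnormal range. *Rheb*, the GTPase that activates mTORC1, had a change of 0.18 (adjusted p = 0.090), and -0.05 with TMM-type factors. Apart from *Tfeb*, no MiT/TFE factor was called, and none of the others reached 5 TPM.

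Of 15 lysosomal membrane genes, *Cd63* and *Scarb2* were called higher and *Lamp1* and *Lamp2* were not. *Cd63*, a tetraspanin of late endosomes and lysosomes, went from 206 ± 16.1 TPM in normal to 293 ± 32.8 TPM in abnormal fibers (SD, n = 4; log2 change 0.50, adjusted p = 0.0050 from limma). With TMM-type factors its change was 0.27 (adjusted p = 0.11), and 2 copies of *Cd63* in the annotation can share its reads. *Scarb2*, the receptor that carries glucocerebrosidase to the lysosome, had a change of 0.31 (adjusted p = 0.042), 0.09 with these factors (0.70), and was called under 7 of 25 other settings. The cathepsins were split in direction, with 7 of 12 changes above 0 and only *Ctsc* called (0.36, adjusted p = 0.017, or 0.14 at an adjusted p of 0.42 after the TMM-type rescaling). *Ctsa*, which protects other lysosomal enzymes, had a change of 0.23 (adjusted p = 0.064).

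Of 33 other hydrolases and cofactors 3 were called, *Gaa*, *Fuca1* and *Hexa*, and none of these with TMM-type factors. *Fuca1*, which removes fucose from glycoproteins, went from 13.1 ± 1.10 to 18.6 ± 2.24 TPM (SD, n = 4; log2 change 0.47, adjusted p = 0.016 in limma, or 0.26 at an adjusted p of 0.21 after the TMM-type rescaling). *Hexa*, a subunit of the enzyme that breaks down gangliosides, had a change of 0.35 (adjusted p = 0.019) that was 0.13 with these factors (0.55). Among 9 genes of mannose-6-phosphate sorting, which brings hydrolases to the lysosome, *Sort1* and *Igf2r* were called. *Sort1*, the sorting receptor sortilin, was at 15.7 to 20.3 TPM in abnormal and 7.72 to 12.6 TPM in normal samples (log2 change 0.75, SE 0.15, adjusted p = 0.0091, or 0.54 at an adjusted p of 0.015 after the TMM-type rescaling). *Igf2r*, the cation-independent mannose-6-phosphate receptor, was at 4.57 to 6.00 TPM in abnormal and 1.76 to 3.34 TPM in normal samples (log2 change 0.65, adjusted p = 0.037, or 0.47 at an adjusted p of 0.075 after the TMM-type rescaling), and its call was lost under 14 of 25 other settings.

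**Figure D3:**
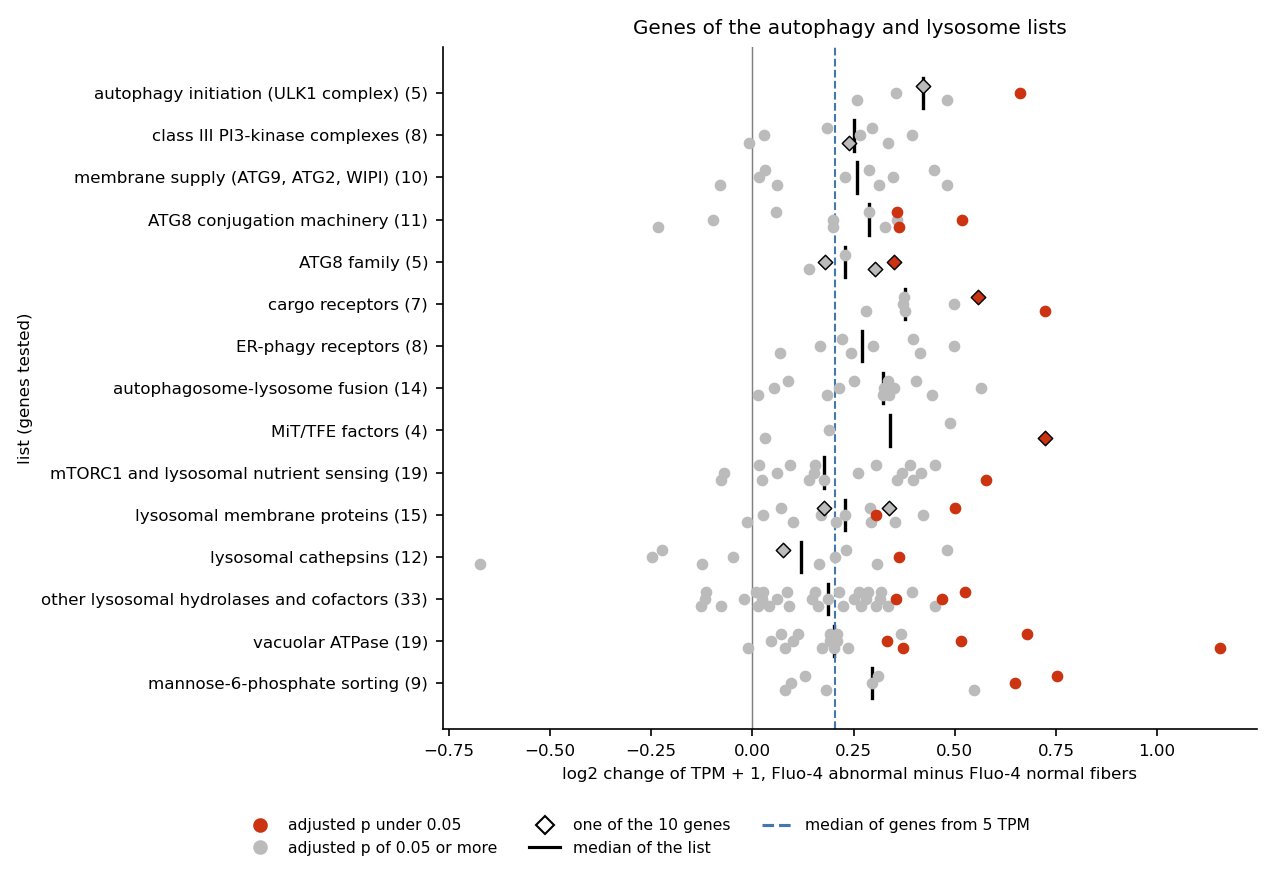
Log2 change of TPM + 1 between Fluo-4 abnormal and Fluo-4 normal fibers (x axis) for each tested gene of the 15 lists (y axis, number of genes tested in brackets). Red points passed an adjusted p of 0.05, diamonds are the 10 genes, black lines are list medians, and the dashed line is the median of genes from 5 TPM (0.20). *Atp6v0a1* at 1.16 lies farthest to the right. With TMM-type factors 73 of the 179 changes are below 0 instead of 18.

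Against Young fibers, 17 of the 179 listed genes (9.50%) were called higher in the abnormal fibers by limma, where 6.09% of all genes tested were, and 1 lower, where 2.41% were. Without the 10 genes 12 of 169 (7.10%) were called higher. The fit limited to genes from 5 TPM kept 129 of the listed genes and called 28 of them in either direction. That fit called 15.2% of all its genes higher and 5.97% lower. The median of the 179 was 0.16, beside 0.12 for genes from 5 TPM. The lower gene was *Smpd1*, the lysosomal sphingomyelinase, chosen after its values were seen (log2 change -0.31, adjusted p = 0.041). The count of called genes was 7 without Young replicate 4, 9 without Young replicate 1, abnormal replicate 2 or abnormal replicate 4, and 32 without normal replicate 1, a sample of neither group in this comparison. In that order, 2.73%, 3.34%, 3.35%, 3.81% and 8.62% of all genes tested were called higher. Between normal and Young fibers 0 of the 179 were called, and the median was -0.06, beside -0.07 for genes from 5 TPM. *Smpd1* had a log2 change of -0.38 there. It was not called in the main fit, but was called lower with either replicate block, the filter of 5 TPM or sample weights. The count of called genes was 3 without normal replicate 1 and 1 without Young replicate 4. Of all genes tested, 0.885% were called higher and 0.546% lower in the former fit, and 0.297% and 0.477% in the latter.

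The E-box core was held by 18 of the 73 promoters of the 4 lysosomal lists that RefSeq gave (24.7%) and by 22 of the 104 promoters of the 11 other lists (21.2%), 5 of them among the 8 of mannose-6-phosphate sorting (62.5%), beside 9.51% of the promoters of genes tested. Of the 18 lysosomal genes with a core, 2 were called higher between abnormal and normal fibers, and their median log2 change was 0.18. Of 43 tested lysosomal genes without a core in the window, 8 were called, with a median of 0.20. The same fit called 7.36% of all genes tested higher, a share that covers many genes of low level. In the fit limited to genes from 5 TPM, 22.4% of its genes were called higher, and the median of its genes was 0.20. The calls of that fit were not split by core, so its share is not a background for the counts above. *Lamp1*, with 4 cores, had a change of 0.18. Whether a core goes with a rise was not tested, and counts this small cannot show it.

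Across the 12 samples, the levels of the 10 genes on the log2(TPM + 1) scale were described by Pearson's r. These samples share group differences, scaling and, in the aged groups, replicate numbers, so r is a description. Of the 45 pairs of genes 41 had an r above 0, with a median of 0.63. The highest was *Sqstm1* with *Map1lc3b* (0.91), and 0.88 remained when group means were removed. *Map1lc3a* with *Map1lc3b* had 0.80, and 0.05 remained without group means. The lowest was *Becn1* with *Ctsl* (-0.26). Among 6348 genes from 5 TPM, the gene most like *Map1lc3b* was the polyubiquitin gene *Ubb* (r = 0.99), and that most like *Sqstm1* was *Dctn2* (0.97), a subunit of dynactin. *Tfeb* was most like *Sync* (0.97), *Lamp1* like *Ipo13* (0.97), *Gabarapl1* like *Otud1* (0.97), *Map1lc3a* like *Rack1* (0.96) and *Ulk1* like *Epb41* (0.94). *Lamp2* was most like the cargo receptor gene *Tax1bp1* (0.92), *Ctsl* like *Dtd2* (0.92) and *Becn1* like *Zmiz2* (0.92).

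Lysosomal genes are also expressed by macrophages, so markers of other cells are given here. The 11 macrophage and leukocyte markers summed to 1.30 to 3.06 TPM in Young, 6.53 to 25.0 TPM in normal and 8.62 to 15.1 TPM in abnormal samples. *Lyz2*, the lysozyme of myeloid cells, was at 0.269 to 1.04, 4.58 to 13.8 and 6.69 to 10.5 TPM. It was the one marker of the list called by limma, higher in abnormal (log2 change 2.38, adjusted p = 0.00035) and in normal fibers (2.19, adjusted p = 0.0021) than in Young fibers. *Ptprc* and *Adgre1* were at or under 0.262 and 0.011 TPM in all samples, whereas 6 of the 11 markers reached 1 TPM in at least 1 sample. *Cd74* was at 0.273 to 0.995 TPM in Young, 0.129 to 4.40 in normal and 0.415 to 1.77 in abnormal samples. *Tyrobp* was at 0 in Young and reached 2.02 TPM in normal and 1.10 TPM in abnormal samples. *C1qb* and *C1qc* reached 0.145 and 0.06 TPM in Young, 1.31 and 1.51 in normal, and 0.784 and 0.644 in abnormal samples. *Cd68* was at 0.00 to 0.45, 0.06 to 0.58 and 0.41 to 2.84 TPM. The sum was as high in normal as in abnormal samples, and its part in the differences from Young fibers was not tested. Other sums overlapped between abnormal and normal samples, with fibroblast markers at 25.3 to 82.4 TPM in normal and 13.6 to 63.8 TPM in abnormal, endothelial markers at 5.48 to 27.8 and 3.75 to 11.5 TPM, and erythroid markers at 118 to 480 and 44.3 to 235 TPM. Smooth muscle and pericyte markers were at 5.09 to 22.7 and 3.34 to 12.2 TPM, satellite cell markers at 1.16 to 2.47 and 1.18 to 3.16 TPM, and Schwann cell markers at 1.42 to 6.32 and 3.57 to 7.45 TPM. The Schwann cell sum was at 0.773 to 1.81 TPM in Young samples, below every abnormal sample. Of its 4 markers *Mbp*, a myelin protein gene, and *Sox10*, a factor of the glial lineage, were called higher by limma in abnormal than in Young fibers (adjusted p = 0.0065 and 0.021). The part of these cells in the 5 genes called against Young fibers was not tested. The adipocyte genes *Adipoq*, *Plin1* and *Lep* were at 0 in every sample. *Sqstm1*, *Becn1*, *Lamp1*, *Ctsl* and *Gabarapl1* share 1412, 3227, 2564, 1742 and 1146 bp of exon with a gene on the other strand, and libraries of this kit carry no strand.

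The share of mitochondrially-encoded transcripts did not overlap between the aged groups, while the ranges of the *Myh4* share overlapped, as given above. *Myh4* itself was called higher in abnormal than in normal fibers (log2 change 0.66, limma adjusted p = 0.020). With the *Myh4* share as a covariate, 3 of the 10 genes were called between abnormal and normal fibers, *Tfeb*, *Map1lc3b* and *Lamp2*. That fit called 4.94% of all genes tested higher. With the covariate and the replicate block together 0 were called, at adjusted p-values of 0.11 for *Map1lc3b*, 0.12 for *Sqstm1* and 0.12 for *Tfeb*, while their log2 changes were 0.35, 0.54 and 0.67. Only 0.0970% of all genes tested were called higher there. With scaling that left out the mitochondrially-encoded genes, the same 3 genes were called as with the deposited TPM. The share of all genes tested called higher was 4.34% under this scaling.

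**Figure D4:**
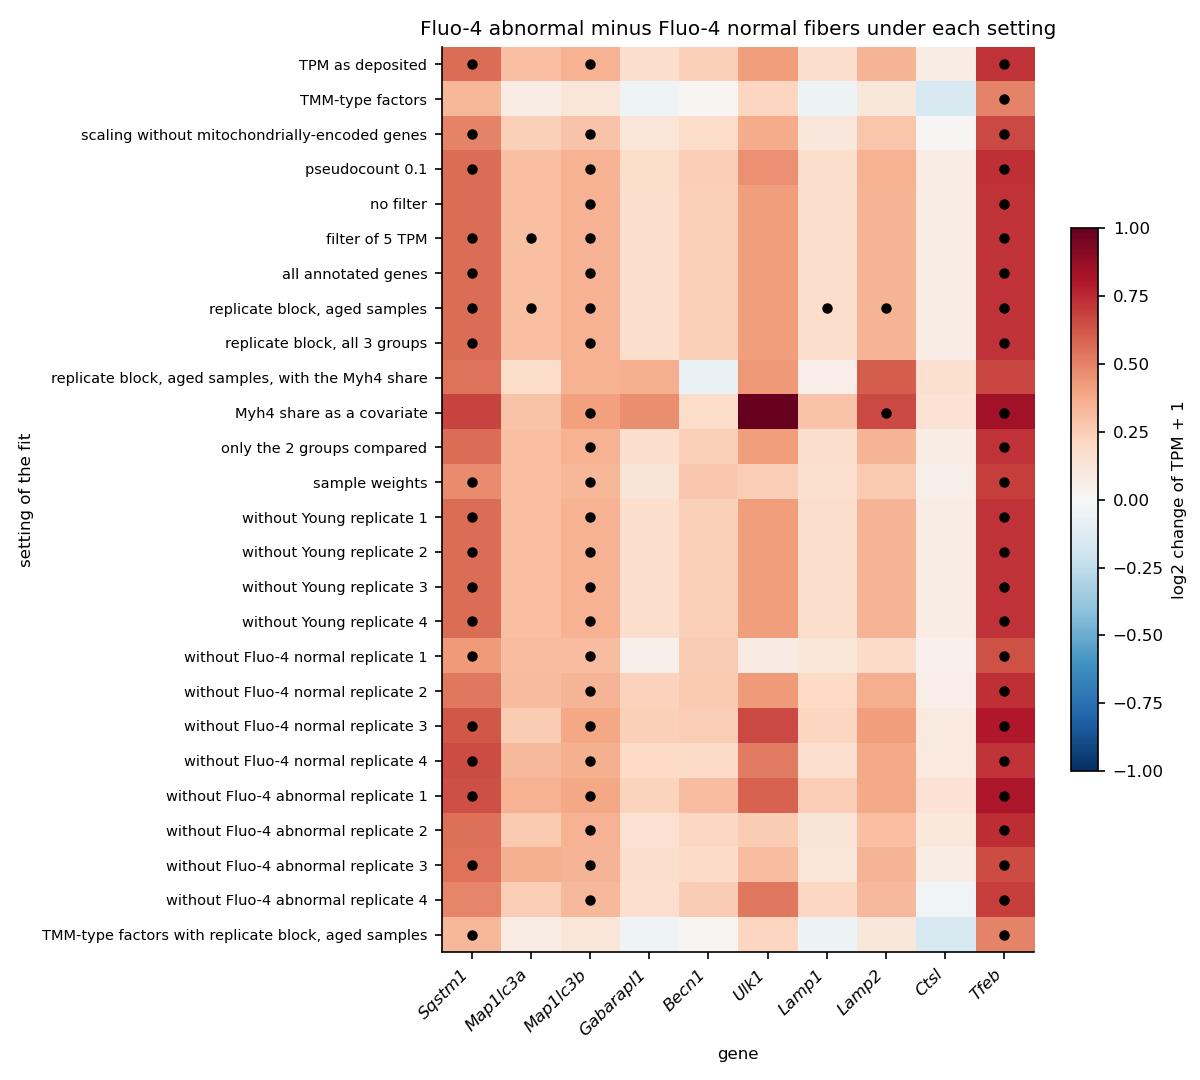
Log2 change of TPM + 1 between Fluo-4 abnormal and Fluo-4 normal fibers (color) for the 10 genes (x axis) under each setting of the fit (y axis). Black dots mark an adjusted p under 0.05. *Tfeb* has a dot in every row apart from the fit with both the replicate block and the *Myh4* share, and *Gabarapl1*, *Lamp1* and *Ctsl* are below 0 with TMM-type factors.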

How the data were processed

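RNA of isolated EDL fibers was measured in 12 samples, 4 per group, grouped by the sample titles. The authors prepared libraries from 10 ng of RNA with SMART-Seq v4, used DRAGEN 4.3 for alignment to GRCm39 and for quantification, and deposited 1 TPM value per gene symbol and sample. Which annotation release they used is not given in the sources used here. Files had 55487 lines, and 114 symbols on several lines were summed. Counts were not used here, so depth per sample is unknown and no interval from counts was computed.

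Values were taken as log2(TPM + 1). Protein-coding and mitochondrially-encoded genes with a mean of at least 0.02 TPM in 1 group or more (14427) were fitted in 1 linear model of the 3 groups with limma 3.58.1 (R 4.3.3, variance trend, Benjamini-Hochberg adjustment, threshold 0.05). A fold change on this scale understates changes of low genes. The fit was tested on simulated data. The fit was repeated with TMM-type factors (30% of log ratios and 5% of levels trimmed), with mitochondrially-encoded genes left out of the scaling, a pseudocount of 0.1, no filter, a filter of 5 TPM, all annotated genes, the replicate block (aged samples or all groups), the *Myh4* share with and without the block, only the groups compared, sample weights and leaving out each sample. TMM-type factors with the block were chosen after seeing the data. The labels number replicates alike across groups, and no source ties a number to a mouse. Over 6348 genes, same-numbered abnormal and normal samples had correlated deviations from their group means (r = 0.42, 0.36, 0.42 and 0.28), so they were treated as paired in the block.

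The 10 genes and the 15 lists were chosen with earlier results of these data known. Named were the 10 genes, the 2 other genes with the smallest p (abnormal against normal) per list among genes from 5 TPM, and the gene most correlated with each of the 10. Coordinates are from GENCODE vM39 (GRCm39) and promoters from RefSeq (GRCm38.p6). Copies were searched with BLAST 2.17.0 (95% identity over 100 bp and 50% of the transcript) and overlaps counted from 100 bp. Python 3.11.15 was used for the tables (pandas 2.3.3, numpy 2.4.6) and the figures (matplotlib 3.10.9).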

Additional observations from a re-analysis of the deposited data

Results flagged for a closer look

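Each of the 38 named genes was checked in each group for a sample far from the other 3, by the gap to its neighbour relative to the range of the group on the log2 scale (Dixon's critical value for 4 samples). Of 114 checks 8 passed, and chance flags about 1 in 20 groups. *Sqstm1* was at 583 TPM in Young replicate 2, above the 489 to 502 TPM of the other Young samples. *Atg13* was at 11.5 TPM in Young replicate 4, below 16.2 to 16.7 TPM, and *Sort1* was at 8.52 TPM in the same sample, below 11.8 to 12.0 TPM. *Tmem41b* was at 38.5 TPM in Fluo-4 abnormal replicate 3, above 30.9 to 31.4 TPM. In Fluo-4 abnormal replicate 4, *Retreg3* was at 4.38 TPM, below 6.41 to 6.83 TPM, and *Scarb2* was at 15.8 TPM, below 17.6 to 17.9 TPM. *Rheb* was at 77.3 TPM in Fluo-4 normal replicate 4, below 85.8 to 87.2 TPM. *Igf2r* was at 1.76 TPM in Fluo-4 normal replicate 1, below 3.30 to 3.34 TPM.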

How the results depend on the processing

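Over 25 alternatives, the 58 log2 changes of named genes gave 1450 values, of which 1249 kept direction and call, 123 lost the call, 43 gained it and 35 changed sign. The cause was not tested. *Tfeb* between abnormal and normal fibers kept its call in 24 of 25. For abnormal against normal fibers, the count of the 10 genes (3) was 1 with TMM-type factors, 6 with the replicate block of aged samples, 3 with that of all groups, 0 with the block and the *Myh4* share, 2 with TMM-type factors and block, 4 with the filter of 5 TPM, 2 with no filter or only the groups compared, and 2 to 3 without single samples. The count of listed genes (22) was 6 with TMM-type factors, 13 without mitochondrially-encoded genes in the scaling, 12 with no filter or only the groups compared, 37 with the filter of 5 TPM, 47 and 35 with the replicate block of aged samples and of all groups, 0 with the block and the *Myh4* share, 12 with TMM-type factors and block, and 7 to 24 without single samples. Without mitochondrially-encoded genes in the scaling, 4.34% of all genes tested were called higher and 2.07% lower. With no filter the shares were 3.00% and 0.966%, and with only the groups compared 4.01% and 1.28%. Without single samples, the share called higher ran from 3.19% to 8.03%. Against Young, the 5 genes of abnormal fibers became 2 with TMM-type factors or no filter, and 2 to 6 without single samples. The listed genes (18) became 11 with TMM-type factors, 10 with no filter, 28 with the filter of 5 TPM or sample weights, 35 with the replicate block, and 7 to 32 without single samples. Of all genes tested, 6.09% were called higher and 2.41% lower in the main fit. These shares were 3.09% and 4.80% with TMM-type factors, and 2.40% and 1.10% with no filter. They were 15.2% and 5.97% with the filter of 5 TPM, and 8.82% and 3.06% with sample weights. The block of aged samples gave 10.2% and 3.66%, and that of all groups 8.40% and 3.04%. Without single samples, the share called higher ran from 2.73% to 8.62%. For normal against Young fibers (0 and 0), the 10 genes gave 1 with TMM-type factors and block and 0 to 1 without single samples, and the listed genes gave 1 with the filter of 5 TPM, 3 and 1 with the replicate block of aged samples and of all groups, 2 with sample weights, 5 with TMM-type factors and block, and 0 to 3 without single samples. Of all genes tested, 0.561% were called higher and 0.589% lower in the main fit. These shares were 1.59% and 2.60% with the filter of 5 TPM, and 1.23% and 1.25% with sample weights. They were 1.48% and 2.07% with the block of aged samples, and 0.887% and 1.33% with that of all groups. TMM-type factors and block gave 1.89% and 1.63%. Without single samples, the share called higher ran from 0.243% to 0.885%. The block of aged samples added *Ctsl* against Young (adjusted p = 0.019) and changed no other call of the 10 genes in the comparisons with Young.

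Sign changes were all of uncalled values. With TMM-type factors, with or without the block, they were -0.0396 for *Gabarapl1*, -0.0506 for *Lamp1*, -0.150 for *Ctsl*, -0.0861 for *Gabarapl2* and -0.0470 for *Rheb* (abnormal against normal), -0.104 for *Ulk1* and -0.0142 for *Lamp1* (abnormal against Young), and 0.0152 for *Sqstm1* and 0.0364 for *Lamp1* (normal against Young). *Becn1* was at -0.0630 with the block and the *Myh4* share (abnormal against normal). *Lamp1* between normal and Young fibers was at 0.0149 without mitochondrially-encoded genes, 0.0364 with the block and the *Myh4* share and 0.00276 with sample weights, and *Sqstm1* was at 0.0692 with sample weights. Without single samples, *Ctsl* ranged from -0.0235 to 0.144 (abnormal against normal), *Becn1* from -0.106 to 0.0472 and *Ulk1* from -0.104 to 0.228 (abnormal against Young), and *Sqstm1* from -0.130 to 0.0913, *Lamp1* from -0.0531 to 0.0358 and *Lamp2* from -0.217 to 0.0129 (normal against Young).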
